A study of Mus musculus with 18 samples.

Results

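RNA of mouse bone-marrow-derived macrophages (BMDMs), cells matured in a dish from marrow precursors, was sequenced after 18 h with interferon-gamma and lipopolysaccharide together (IFNg with LPS, or both agents) and in a control. The samples were taken by the ends of their titles: 3 libraries with IFNg and LPS and 3 controls, 6 of the 18 libraries of the study, and every gene of their count files was used. The labels give both groups as WT cells at 18 h and name no strain, age, dose or agent in the control. Nothing in them says that the replicates were separate animals or cultures, and p-values then describe only the spread among libraries, which may be technical. A further 3 libraries, with IFNg alone for 18 h, are given beside them to place the net change. The remaining 9 libraries, with IFNg plus TNF, IL1b or hypoxia, entered only the estimate of the spread. No group had LPS without IFNg, so an effect of LPS cannot be told apart from its combination with IFNg.

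IFNg binds a receptor whose kinases Jak1 and Jak2 start a signal to genes with GAS sites, among them the transcription factor Irf1 and Ciita, the switch for MHC class II genes. LPS, from the outer membrane of Gram-negative bacteria, is handed by Cd14 to Tlr4 and Ly96, which signal through Myd88 to NF-kappaB and through Ticam1 to Irf3 and type I interferon, whose target genes carry ISRE sites. Macrophages given both are the textbook case of classical activation, known for nitric oxide from Nos2, itaconate from Acod1, inflammatory cytokines and increased use of glucose.

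The 6 libraries held 13849367 to 18470650 counts in genes, and 3 counts, taken as the floor, equalled 0.151 to 0.209 CPM (gene counts scaled to a common library size). Replicates differed by more than counting noise. The third IFNg with LPS library lay farthest from its group. Its Pearson correlation across genes was 0.972 and 0.974 with the other 2 libraries, which had 0.984 between them. The 3 pairs of control libraries, at 0.974, 0.976 and 0.977, were about as far apart as this library was from its group. Of 13 macrophage markers all were measured. Adgre1, which encodes F4/80, was at 2803 ± 274 CPM with IFNg and LPS and at 2987 ± 388 CPM in control, and Spi1, the transcription factor PU.1, was at 453 ± 39.2 CPM with IFNg and LPS and 461 ± 40.97 CPM in control (SD, n = 3 each). Neither was called, although Adgre1 was lower at an adjusted p of 0.0126 when libraries were scaled to their total reads. Summed over its 13 genes, the macrophage list stood at 19190.0 to 20200.0 CPM in the IFNg with LPS libraries and at 27170.0 to 33690.0 CPM in control. The defining markers of T cells Cd3d, Cd3e and Cd3g, of NK cells Ncr1 and of erythroid cells were too low to be tested.

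Of 11563 genes tested, 2256 (19.5%) were higher and 2005 (17.3%) lower with IFNg and LPS than in control, at an adjusted p under 0.05 in edgeR's quasi-likelihood test, together 36.9%. At least 2-fold, 1140 (9.86%) were higher and 1108 (9.58%) lower. In 44.1% of the tested genes the 3 libraries of one group did not overlap those of the other. The median log2 fold change over all tested genes was -0.01. Scaling to total reads, inferred from the deposited RPKM values, moved that median by -0.23 and the split to 1614 higher and 2999 lower. Directions below are relative to the TMM scaling. The list counts below stand against the 19.5% higher and 17.3% lower of all tested genes, and some lay near these shares. A list has both splits beside it where the share of higher genes among its calls changed by over 10 percentage points. Counts also changed in other lists, for example lower DNA replication genes from 17 to 21 of 29 and lower cholesterol synthesis genes from 12 to 15 of 22. The log2 fold change (log2FC) over control has its standard error after ±, and a gene is called where it passed this test.

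**Figure D1:**
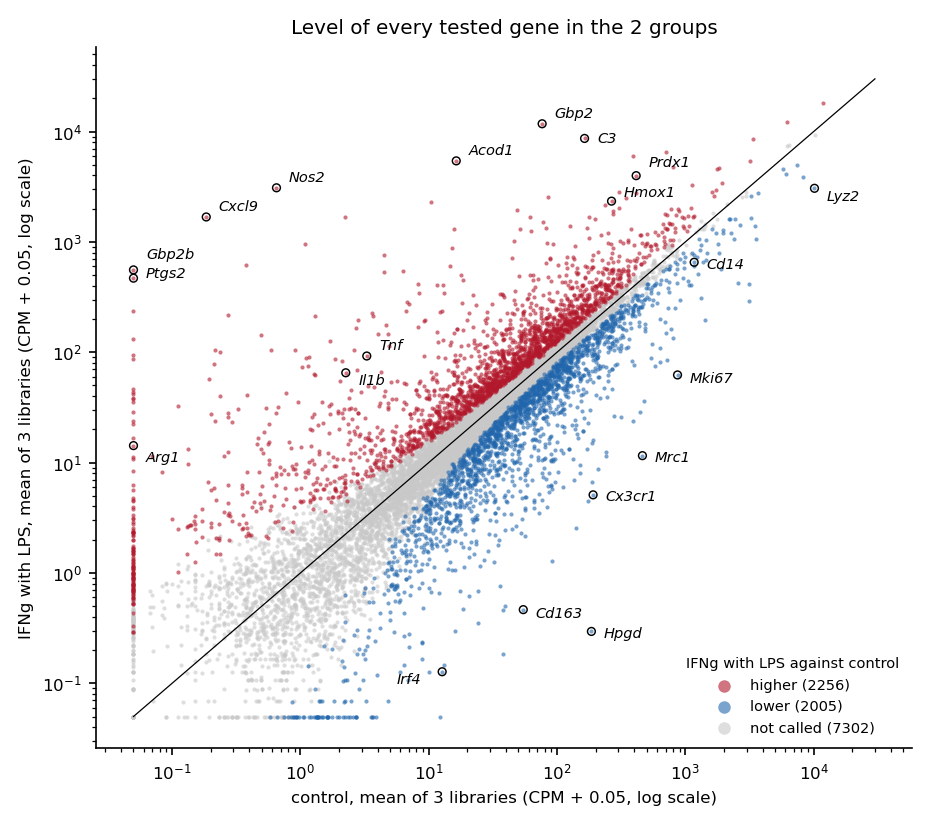
Mean level of each of the 11563 tested genes with IFNg and LPS (vertical axis) against control (horizontal axis), in CPM plus 0.05 on log scales, with the 2256 higher genes in red, the 2005 lower genes in blue and the line of equal levels. Ptgs2 and Gbp2b stood on the left edge, at 0 counts in control, and Hpgd and Cd163 lay far below the line, under 1 CPM with IFNg and LPS.

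Genes were ranked here by the fitted log2FC, which for a gene with no count in control depends on the prior count and does not order it against genes that were counted there. Of the first 10 by this rank, 9 had no count in any control library, and for these only a lower bound is given. Gbp2b, a guanylate-binding protein that attacks the vacuoles of intracellular microbes, had 429.9, 498 and 744 CPM in the IFNg with LPS libraries, against 0 CPM in all 3 controls, which is at least 9577-fold higher. Ptgs2, the inducible cyclooxygenase that makes prostaglandin precursors, had 464, 536 and 406 CPM with both agents, against 0 CPM in all 3 controls, at least 8324-fold higher (adjusted p = 5.62e-20). All 3 libraries with IFNg and LPS were high in both genes and no control library overlapped them. Serpina3f, of a family of protease inhibitors, was at least 4141-fold higher, Ly6i, a surface protein of the Ly6 family, at least 2268-fold, and Ubd, a ubiquitin-like modifier, at least 1651-fold. Gbp10, the complement protease C1s1, the IRG-like Gm4841 and the chemokine Cxcl11 were at least 1498-fold, 817-fold, 769.8-fold and 725-fold higher. The tenth was the chemokine Cxcl9, with 1469.8, 1542 and 2034 CPM with both agents, against 0.404, 0 and 0 CPM in control, a log2 fold change of 13.37 ± 0.37 (adjusted p = 2.02e-17). The bounds rest on 3 counts over the control group. Gbp, Ly6 and Serpina3 genes have near-identical copies, and the authors' counting could have split reads among them.

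Among the 10 genes with the largest fitted fall were a prostaglandin-degrading enzyme, a scavenger receptor and a transcription factor. Hpgd, which inactivates prostaglandins, had 0.406, 0.330 and 0 CPM with IFNg and LPS, against 258, 151 and 146 CPM in control, a log2 fold change of -9.44 ± 0.50 (adjusted p = 1.93e-12). Cd163, the scavenger receptor for hemoglobin bound to haptoglobin, had 0.695, 0.549 and 0 CPM with both agents, against 59.1, 55.9 and 48.4 CPM in control (log2FC -6.95 ± 0.59). Irf4, a transcription factor of alternative activation, had 0.232, 0 and 0 CPM with both agents, against 14.6, 8.37 and 15.01 CPM in control (log2FC -7.18 ± 0.96). Each of these was under 1 CPM in all 3 libraries with IFNg and LPS, and the groups did not overlap. Pif1, a DNA helicase, had no count with IFNg and LPS and 12.2 ± 3.54 CPM in control, at least 206-fold lower. The other 6 were Gprc5c (log2FC -8.01), the sulfotransferase Sult1a1 (log2FC -6.93), the organic anion transporter Slco2b1 (log2FC -6.51), Cd300lg (log2FC -6.48), Ndrg2 (log2FC -6.22) and the IGF-binding protein Igfbp4 (log2FC -6.18), as log2 fold changes.

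Some of the genes described below are shown here by their promoters, because they are textbook targets of interferons and NF-kappaB that rose, or cell cycle genes that fell. Each line is the 250 bases before a transcription start in RefSeq (GRCm38.p6), read 5′ to 3′ along the gene's strand. In the first 4, capitals mark GGGANNNNCC (kappaB), GAAANNGAAA (ISRE) and TTCNNNGAA (GAS), searched on both strands. In the last 2, capitals mark CCAAT and TTTGAA (CHR), the letters known from cell cycle promoters.
Cxcl10: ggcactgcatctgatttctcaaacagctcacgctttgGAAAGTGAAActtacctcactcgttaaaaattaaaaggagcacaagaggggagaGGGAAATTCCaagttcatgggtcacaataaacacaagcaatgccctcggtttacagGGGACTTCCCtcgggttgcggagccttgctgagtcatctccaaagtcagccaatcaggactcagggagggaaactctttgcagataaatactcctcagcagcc
Irf1: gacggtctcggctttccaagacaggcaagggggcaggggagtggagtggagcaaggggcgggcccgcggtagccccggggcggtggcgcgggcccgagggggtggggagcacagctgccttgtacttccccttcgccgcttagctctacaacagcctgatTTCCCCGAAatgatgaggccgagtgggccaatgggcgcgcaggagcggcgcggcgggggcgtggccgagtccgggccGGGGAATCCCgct
Gbp2: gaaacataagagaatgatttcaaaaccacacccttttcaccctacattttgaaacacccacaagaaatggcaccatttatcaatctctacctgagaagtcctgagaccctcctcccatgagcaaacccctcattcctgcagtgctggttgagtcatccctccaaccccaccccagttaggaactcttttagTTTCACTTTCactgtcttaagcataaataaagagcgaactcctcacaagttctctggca
Gbp5: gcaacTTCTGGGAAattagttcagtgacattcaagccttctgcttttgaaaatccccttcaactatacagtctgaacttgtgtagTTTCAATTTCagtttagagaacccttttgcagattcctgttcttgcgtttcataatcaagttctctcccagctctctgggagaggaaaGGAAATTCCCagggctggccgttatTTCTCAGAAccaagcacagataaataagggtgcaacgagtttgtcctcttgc
Ccnb2: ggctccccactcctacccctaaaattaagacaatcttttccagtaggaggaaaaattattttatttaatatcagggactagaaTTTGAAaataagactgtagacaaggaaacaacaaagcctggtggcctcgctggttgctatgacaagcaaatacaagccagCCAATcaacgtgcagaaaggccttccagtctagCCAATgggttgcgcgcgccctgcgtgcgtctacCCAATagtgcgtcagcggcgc
Cdc20: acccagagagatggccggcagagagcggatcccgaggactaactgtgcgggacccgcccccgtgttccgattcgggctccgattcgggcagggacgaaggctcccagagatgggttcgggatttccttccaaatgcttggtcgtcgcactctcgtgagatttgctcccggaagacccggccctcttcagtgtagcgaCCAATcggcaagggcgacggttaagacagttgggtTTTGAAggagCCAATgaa
Cxcl10 lies at chr5:92348890-92349139, minus strand, and its window holds an ISRE beginning 213 bases before the start and kappaB letters at 159 and 103 bases, the second of which match on both strands. The window of Irf1 at chr11:53769764-53770013, plus strand, the first of 2 listed starts, holds a GAS at 90 bases and kappaB letters at 13 bases. Gbp2 at chr3:142620413-142620662, plus strand has an ISRE at 59 bases, and Gbp5 at chr3:142496684-142496933, plus strand has GAS letters at 245 and 52 bases, an ISRE at 165 and kappaB letters at 77. Ccnb2 at chr9:70421555-70421804, minus strand has CCAAT at 87, 54 and 21 bases and a CHR at 167, and Cdc20 at chr4:118437344-118437593, minus strand has CCAAT at 53 and 8 bases and a CHR at 18. Among all 32851 windows of this length, 17.6% hold the kappaB letters, 3.0% the ISRE, 7.0% the GAS, 33.8% CCAAT and 16% the CHR. Among windows of genes at least 2-fold higher with IFNg and LPS, 21.9% hold the kappaB letters, 6.9% the ISRE and 7.4% the GAS, where 22.5%, 2.9% and 6.0% of the windows of all tested genes do. Among the 25 windows of the mitosis list, 20 hold CCAAT, 8 the CHR and 10 the kappaB letters. A match describes letters in a window and not a bound site.

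Most genes of the IFNg relay rose. Of 18 genes of the receptor and its kinases, STATs, IRFs and inhibitors, 15 were higher and 1 was lower, where 19.5% and 17.3% of all tested genes were, and their median log2 fold change was 1.40. Irf1, whose promoter is shown above, had 1324, 1309 and 1408 CPM with IFNg and LPS, against 89.7, 80.2 and 74.9 CPM in control (log2FC 4.04 ± 0.11, adjusted p = 7.97e-21). No IFNg with LPS library overlapped a control in this gene. Irf7, which amplifies type I interferon, was at 2494 CPM with IFNg and LPS against 342 in control (log2FC 2.87), and Irf8 (log2FC 1.53) and Jak2 (log2FC 1.73) also rose. Among inhibitors of the relay, Socs3 was at 29.3 CPM with both agents against 1.90 in control (log2FC 3.94), Cish at 8.69 CPM with both agents against 0.853 in control (log2FC 3.35), and Socs1 at 11.4 CPM against 1 count over the 3 control libraries, a ratio of 615 (95% counting interval 109.9 to 24319). Ifngr1, the ligand-binding receptor chain, was the member that fell, at 185 CPM with both agents against 332 in control (log2FC -0.85). The second chain, Ifngr2, was higher (log2FC 0.31), a call lost with scaling to total reads (adjusted p = 0.557).

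All 18 tested guanylate-binding proteins and immunity-related GTPases, which act on the membranes around intracellular microbes, were higher than in control, with a median log2 fold change of 5.81. Gbp2 had 10682, 12312 and 12283 CPM in the IFNg with LPS libraries, against 79.7, 69.9 and 79.7 CPM in control (log2FC 7.26 ± 0.14, adjusted p = 1.06e-23). Gbp5 had 1310.3, 1264 and 1367 CPM with both agents, against 11.5, 15.4 and 20.5 CPM in control (log2FC 6.38 ± 0.17). The groups did not overlap in either gene. Gbp4 (log2FC 9.60), Tgtp1 (log2FC 10.88) and Iigp1 (log2FC 7.78) rose further, and Irgm1 (log2FC 3.17) and Irgm2 (log2FC 2.79), the regulatory members of the family, also rose.

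Type I interferon-stimulated genes, most of which block steps of virus replication, rose in 30 of 34 cases. Ifi205, a DNA-binding family member, was at 215 CPM with IFNg and LPS against 3.63 in control (log2FC 5.87), Oasl1 at 708 CPM with both agents against 44.2 in control, and Mx1, an antiviral GTPase, at 194 CPM with both agents against 19.7 in control (log2FC 3.30). Rsad2, or viperin, was at 476 CPM with both agents against 84.3 in control (log2FC 2.50), and Isg15, a ubiquitin-like modifier, at 723 CPM with both agents against 118 in control (log2FC 2.61). Against IFNg alone, where 1184 (10.2%) of all tested genes were higher and 1164 (10.1%) lower with LPS added, together 20.3%, 17 of the 34 were higher. With scaling to total reads the split of all genes against IFNg alone was 962 higher and 1441 lower. Oasl1 was at 126 CPM with IFNg alone and Rsad2 at 139.8 CPM. Ifnb1 itself, the gene for interferon-beta, was at 0.348, 0 and 0.836 CPM with IFNg and LPS and at 0 CPM in all 3 controls, and was not called at these few counts.

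**Figure D2:**
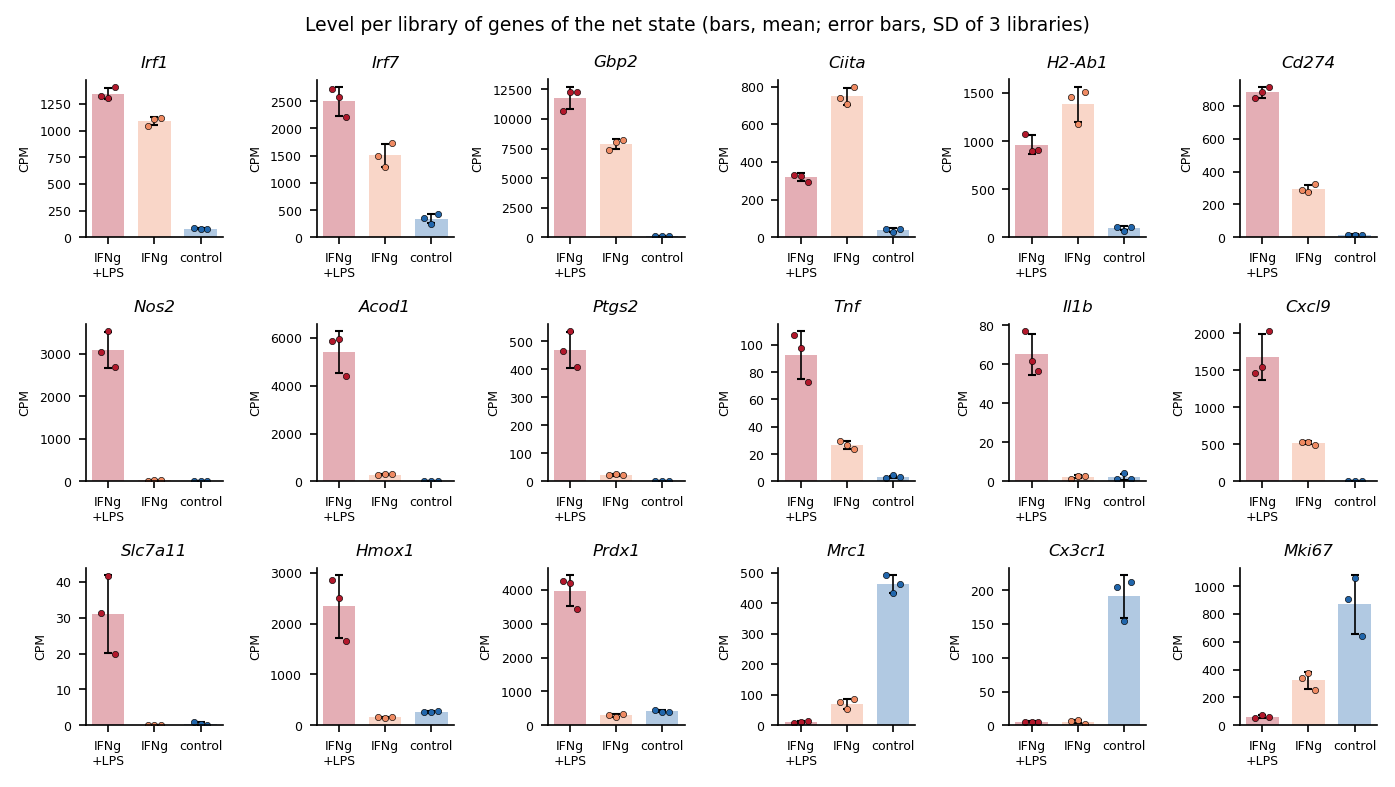
CPM per library of 18 genes in the IFNg with LPS, IFNg alone and control libraries (points; bars, mean; error bars, SD of 3 libraries), on linear axes from 0 that differ between panels. Nos2, Acod1, Ptgs2, Il1b, Slc7a11, Hmox1 and Prdx1 were high in the IFNg with LPS libraries, and in each of them every such library lay above every library with IFNg alone or control, while Irf1 was already high with IFNg alone and Mrc1, Cx3cr1 and Mki67 were highest in control.

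MHC class II genes, which present peptides to CD4+ T cells, were higher than in control in 10 of 12 cases, and 7 of the 12 were lower than with IFNg alone. The transactivator Ciita had 333, 326 and 294 CPM with IFNg and LPS, 741, 709 and 798 CPM with IFNg alone and 43.5, 27.02 and 46.01 CPM in control. Its level lay between the other two groups in all 3 libraries, with a log2FC of 3.03 ± 0.14 over control (adjusted p = 1.17e-15) and of -1.24 ± 0.13 over IFNg alone (adjusted p = 7.36e-08). H2-Ab1, a chain of the I-A molecule, had 1077, 901 and 909 CPM with IFNg and LPS, 1458, 1173 and 1508 CPM with IFNg alone and 103, 69.5 and 106 CPM in control (log2FC 3.37 ± 0.15 over control). Cd74, the invariant chain that guides class II molecules, averaged 6487 ± 215, 10154 ± 751 and 706 ± 105 CPM with IFNg and LPS, IFNg alone and control (SD, n = 3 each). H2-Aa, H2-Eb1, H2-DMa and H2-DMb1 were likewise higher than in control and lower than with IFNg alone. H2-Eb2 and the protease Ctss were not called against control, although Ctss was called higher without the first IFNg with LPS library (log2FC 0.42, adjusted p = 0.0171).

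All 21 tested genes of MHC class I and its peptide supply were higher than in control, with a median of 1.63. The peptide pump Tap1 was at 1082 CPM with IFNg and LPS against 178 in control (log2FC 2.60), the immunoproteasome subunit Psmb8 at 806 CPM with both agents against 210.1 in control (log2FC 1.94), and Nlrc5, the class I transactivator, at 495 CPM with both agents against 103 in control (log2FC 2.27). B2m, the light chain of class I, was at 8469 CPM with both agents against 3389 in control (log2FC 1.32). The ordinary proteasome rose too, in 21 of 23 subunits, for example Psmd11 (log2FC 1.25) and Psmb2 (log2FC 1.23). The H2-Q genes are near copies of each other, so their single values are uncertain.

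Among costimulatory and checkpoint molecules, 12 of 20 tested members were higher and 4 lower. Cd274, or PD-L1, which restrains T cells, had 849, 882 and 914 CPM in the IFNg with LPS libraries, against 17.1, 11.1 and 17.1 CPM in control (log2FC 5.87 ± 0.16, adjusted p = 7.97e-21). Cd86 (234 CPM with IFNg and LPS against 12.7 in control, log2FC 4.20) and Cd40 (151 CPM with both agents against 11.6 in control, log2FC 3.70), both of which help to activate T cells, rose as well. The tryptophan-degrading Ido1, at 17.96, 11.3 and 4.18 CPM with both agents, was at least 203-fold higher than in control, where it had no count. Lower were Vsir, the checkpoint ligand VISTA, at 187 CPM with both agents against 439 in control (log2FC -1.23), and Sirpa, the receptor of the do-not-eat-me signal Cd47, at 1205 CPM with both agents against 2280.1 in control (log2FC -0.92). Cd83 and Cd200r1 were the other 2 lower members, and the call of Cd83 was lost in 4 of the 6 fits that left out 1 library, at adjusted p-values of 0.0966 and 0.102 without the first or the third IFNg with LPS library and 0.254 and 0.0571 without the second or the third control library. Icosl and Cd80 were not called.

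Among the LPS receptor, its adaptors and relay, 8 of 26 tested members were higher and 3 lower, and scaling to total reads gave 7 higher and 6 lower. Tlr4 had 224, 349 and 330.3 CPM with IFNg and LPS, against 217, 314 and 283 CPM in control, and was not called (log2FC 0.15 ± 0.15, adjusted p = 0.485), although it was at an adjusted p of 0.0493 without the first IFNg with LPS library. Cd14 had 766, 638 and 556 CPM with both agents, against 1215, 1118 and 1179 CPM in control (log2FC -0.84 ± 0.13, adjusted p = 5.68e-06), and averaged 148 CPM with IFNg alone, over which its log2FC was 2.14 ± 0.13. It was thus lower than in control and higher than with IFNg alone in every library. Irak2, a kinase of the Myd88 complex, was at 148 CPM with IFNg and LPS against 54.1 in control (log2FC 1.45), and the LPS-modulating receptor Cd180 at 1784 CPM with both agents against 698 in control (log2FC 1.35). The adaptors Myd88 (log2FC 0.77) and Ticam1 (log2FC 0.70) rose. The lower calls of Ly86 and Irak4, a partner of Cd180 and a kinase, were lost without the first IFNg with LPS library (adjusted p = 0.0811 and 0.0958) and without the second (0.0520 and 0.0518), and that of Ly86 also without the third (0.0656) and without the second control library (0.190), so that Cd14 was the only member left lower without the first or second.

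Of 21 NF-kappaB subunits and feedback genes, 14 were higher and 1 was lower, or 13 and 3 with scaling to total reads. The 3 largest rises were in proteins of the relay and its feedback: Traf1 at 118 CPM with IFNg and LPS against 25.3 in control (log2FC 2.22), Tnfaip3, or A20, at 102 CPM with both agents against 24.2 in control (log2FC 2.07), and Nfkbie at 46.8 CPM with both agents against 12.9 in control (log2FC 1.86). The inhibitor Nfkbia was at 98.3 CPM with both agents against 60.7 in control (log2FC 0.70). Of the subunits, Relb (log2FC 0.79) and Nfkb2 (log2FC 0.65) rose, while Rela, Nfkb1 and Rel had log2 fold changes of 0.13, -0.10 and -0.29 and were not called, although scaling to total reads called Nfkb1 and Rel lower (adjusted p = 0.00733 and 0.0384). Among other brakes on signals and mRNA stability, 9 of 17 tested members were higher and 3 lower. That lower share, 17.6%, was near the 17.3% of all tested genes. Dusp1, a phosphatase of MAP kinases, was at 59.1 CPM with both agents against 18.9 in control (log2FC 1.65), and Zfp36, which destabilises cytokine mRNAs, at 263 CPM with both agents against 143 in control (log2FC 0.88). Its relative Zfp36l1 was lower, at 12.01 CPM with both agents against 49.8 in control (log2FC -2.05).

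Of 20 cytokine genes tested, 12 were higher and 2 lower, with a median log2 fold change of 2.69, or 2.24 with genes at 0 counts in a group set at their bound. Tnf had 107, 97.5 and 72.6 CPM in the IFNg with LPS libraries, against 2.47, 4.28 and 2.97 CPM in control (log2FC 4.84 ± 0.25, adjusted p = 1.78e-14). Il1b had 76.9, 61.6 and 56.7 CPM with both agents, against 1.31, 4.16 and 1.15 CPM in control (log2FC 4.90 ± 0.42, adjusted p = 1.03e-07), and the groups did not overlap in either gene. Il1rn, the antagonist of the IL-1 receptor, rose as well, at 175 CPM with IFNg and LPS against 4.58 in control (log2FC 5.25). Il6 and Il12b, of which Il12b encodes the shared subunit of IL-12 and IL-23, stayed at a few CPM. Il6 had 2.78, 2.80 and 1.32 CPM with both agents, against 0 CPM in all 3 controls, at least 41.6-fold higher, and Il12b had 3.13, 2.47 and 1.88 CPM with both agents, against 0 CPM in all 3 controls, at least 44.4-fold higher. Il10, which dampens inflammation, had 1.56, 0 and 2.51 CPM with both agents, against 2.52, 2.63 and 3.33 CPM in control, and was not called. The lower members were Il16 (27.4 CPM with both agents against 114 in control, log2FC -2.06) and Tgfb1 (171 CPM with both agents against 270.4 in control, log2FC -0.66), and Il12a, Il23a, Lif, Csf2 and Csf3 were too low to be tested.

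Chemokine genes fell into higher and lower ones, 11 and 4 of 17 tested, with a median of 4.83, or 2.08 with genes at 0 in a group set at their bound. Those that attract T cells through Cxcr3 were led by Cxcl9, given above, and by Cxcl10, with 549, 644 and 613 CPM with both agents, against 22.2, 10.1 and 11.3 CPM in control (log2FC 5.36 ± 0.25). Ccl5 was at 758 CPM with IFNg and LPS against 4.40 in control (log2FC 7.42), Ccl2, which attracts monocytes, at 197 CPM with both agents against 2.78 in control (log2FC 6.10), and Ccl7 at 28.96 CPM against no count, at least 493-fold higher. Ccl9 was lower, at 84.2 CPM with both agents against 715 in control (log2FC -3.09), as were Ccl6 at 22.2 CPM with both agents against 85.03 in control (log2FC -1.94) and Ccl3 at 15.1 CPM with both agents against 41.04 in control (log2FC -1.44). Ccl4 was at 16.03 CPM with both agents against 15.7 in control and was not called, and Cxcl1 was too low to be tested.

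Receptors for such signals split as well: 9 of 20 tested members were higher and 8 lower. The formyl peptide receptors Fpr2, at 89.9 CPM with IFNg and LPS against 1.11 in control (log2FC 6.34), and Fpr1, at 11.3 CPM with both agents against 0.202 in control (log2FC 5.72), which sense bacterial peptides, rose together with Ccr1 (log2FC 3.05) and Ccr7 (log2FC 1.90). Cx3cr1, the fractalkine receptor of resident macrophages and patrolling monocytes, had 5.16, 5.60 and 4.39 CPM with IFNg and LPS, against 205, 155 and 212 CPM in control (log2FC -5.23 ± 0.65, adjusted p = 7.87e-06), and 6.10, 7.83 and 2.46 CPM with IFNg alone. Every library with IFNg and LPS or with IFNg alone lay far below every control library. Cxcr4, which holds cells in bone marrow, fell to 28.6 CPM with both agents, against 439.6 CPM in control (log2FC -3.94), and Ccr2, the receptor of Ccl2, to 131 CPM with both agents, against 366 CPM in control (log2FC -1.48).

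Nitric oxide and arginine genes were led by Nos2, the inducible nitric oxide synthase, with 3040.2, 3539.5 and 2694 CPM in the IFNg with LPS libraries, 19.02, 22.1 and 33.6 CPM with IFNg alone and 0.404, 0.672 and 0.726 CPM in control. Its log2FC was 12.34 ± 0.36 over control (adjusted p = 7.27e-16) and 6.96 ± 0.27 over IFNg alone (adjusted p = 5.28e-13), with no overlap among the 3 groups. Over the list, 6 of 14 tested members were higher and 3 lower. The arginine importer Slc7a2, at 63.2 CPM with IFNg and LPS against 1.22 in control (log2FC 5.74), and Ass1, which recycles citrulline to arginine, at 145 CPM with both agents against 3.96 in control (log2FC 5.21), rose with it. Arg1, the arginase that marks alternative activation in mice, also rose, with 16.9, 16.5 and 9.20 CPM with both agents, against 0 CPM in all 3 controls, at least 255-fold higher, but its level per kilobase of coding length, 14.6 CPM, was far under that of Nos2, 899.9 CPM. Gch1, which starts synthesis of the cofactor of Nos2, was at 15.2 CPM with both agents against 9.47 in control and was not called, and Qdpr, which recycles that cofactor, was lower (log2FC -1.11).

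Among oxidant and antimicrobial effectors, 6 of 18 tested members were higher and 3 lower. The lower share, 16.7%, was near the 17.3% of all tested genes. Acod1, which makes itaconate, had 5879, 5968 and 4417 CPM with both agents, against 14.7, 17.8 and 16.5 CPM in control (log2FC 8.38 ± 0.18, adjusted p = 7.57e-23), and averaged 284 ± 21.3 CPM with IFNg alone. Slc11a1, or Nramp1, which pumps metal ions out of phagosomes, was at 971 CPM with IFNg and LPS against 250.2 in control (log2FC 1.96), and Cybb, the core of the phagocyte oxidase, at 2041 CPM with both agents against 1097 in control (log2FC 0.90). The oxidase subunits Cyba and Ncf1 were not called, with log2 fold changes of 0.38 and 0.14. A further oxidase subunit, Ncf4, was called lower. That call was lost with the 6 libraries fitted alone (log2FC -0.40, adjusted p = 0.0762) and without the third IFNg with LPS library (log2FC -0.28, adjusted p = 0.129), among other fits. The antimicrobial lower count of 3 became 1 without the third IFNg with LPS library. Lyz2, lysozyme, fell to 2805, 2619 and 3752 CPM with both agents, against 12766, 7740.3 and 9912 CPM in control (log2FC -1.73 ± 0.15, adjusted p = 1.02e-09).

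All 12 tested genes of prostaglandin and leukotriene synthesis and breakdown passed the test, 5 higher and 7 lower. Higher were 4 genes of the path to prostaglandin E2, namely Pla2g4a, which frees arachidonic acid, at 348 CPM with IFNg and LPS against 13.2 in control (log2FC 4.72), Ptgs2, given above, the synthase Ptges at 13.8 CPM with both agents against 0.956 in control (log2FC 3.91) and Ptges2 (log2FC 0.77), which lost its call with scaling to total reads (adjusted p = 0.0968). The fifth was the thromboxane synthase Tbxas1 (log2FC 0.75). Lower were the constitutive cyclooxygenase Ptgs1, at 6.83 CPM with both agents against 64.1 in control (log2FC -3.22), and the leukotriene genes Alox5, at 2.45 CPM with both agents against 44.7 in control (log2FC -4.19), and Ltc4s, at 0.584 CPM with both agents against 7.08 in control (log2FC -3.56). Hpgd, given above, belongs to the lower ones.

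Transcripts of glycolysis rose along most of the path. Of 22 tested genes 17 were higher, and scaling to total reads gave 17 higher and 2 lower. Slc2a1, the glucose transporter GLUT1, had 291, 292 and 213 CPM in the IFNg with LPS libraries, against 18.2, 26.7 and 24.8 CPM in control (log2FC 3.52 ± 0.15, adjusted p = 2.29e-16), with no overlap. Pfkfb3, which makes the activator of phosphofructokinase, was at 162 CPM with IFNg and LPS against 16.6 in control (log2FC 3.28), the hexokinases Hk3 and Hk2 at 2816 CPM with both agents against 304 in control (log2FC 3.21) and 121 CPM with both agents against 22.4 in control (log2FC 2.43), and the lactate exporter Slc16a3 at 499 CPM with both agents against 61.9 in control (log2FC 3.01). Against IFNg alone 14 of the 22 were higher, Slc16a3 for instance with a log2FC of 2.42 over it. Gapdh and Pgam1 were too low in these counts to be tested, and Pgk1 stood under 1 CPM. These have near-identical copies in the genome, among which the counting could lose reads.

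In the TCA cycle, 11 of 25 tested members were higher and 6 lower, or 8 and 7 with scaling to total reads. Besides Acod1, those higher included Sdhb (log2FC 0.76) and Ogdh (log2FC 0.70). The cytosolic isocitrate dehydrogenase Idh1 fell to 109.9 CPM with both agents, against 637 CPM in control (log2FC -2.54 ± 0.13, adjusted p = 5.28e-15), and the mitochondrial Idh2 (21.1 CPM with IFNg and LPS against 58.7 in control, log2FC -1.48), Idh3g (91.7 CPM with both agents against 187 in control, log2FC -1.03) and the fumarase Fh1 (58.8 CPM with both agents against 122 in control, log2FC -1.05) were lower as well. Idh3a, another subunit of the enzyme of Idh3g, was higher (log2FC 1.05). Of 40 nuclear-encoded respiratory chain genes, 11 were higher, and with scaling to total reads 6 were higher and 5 lower. Their median log2 fold change was 0.21. Of 10 mitochondrially encoded genes, the call of mt-Cytb, lower, was lost without either of the first 2 libraries of each group, at adjusted p-values between 0.106 and 0.193, and scaling to total reads gave 2 lower.

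Hif1a, the oxygen-sensitive transcription factor, had 549.9, 586 and 622 CPM with IFNg and LPS, against 114, 130.4 and 115 CPM in control (log2FC 2.29 ± 0.11, adjusted p = 3.26e-15). Of its 19 tested targets and partners outside glycolysis, Hif1a included, 9 were higher and 3 lower. The lower share, 15.8%, was near the 17.3% of all tested genes. Vegfa, a growth factor for vessels, was at 45.1 CPM with IFNg and LPS against 9.42 in control (log2FC 2.26), and the collagen hydroxylase P4ha1 at 193 CPM with both agents against 59.1 in control (log2FC 1.71). Others that mark hypoxia in many cells were not called higher: Car9 (log2FC 0.20) and Egln3 (log2FC 1.44) did not pass the test, and Ndrg1 was lower, at 40.5 CPM with both agents against 154 in control (log2FC -1.93).

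**Figure D3:**
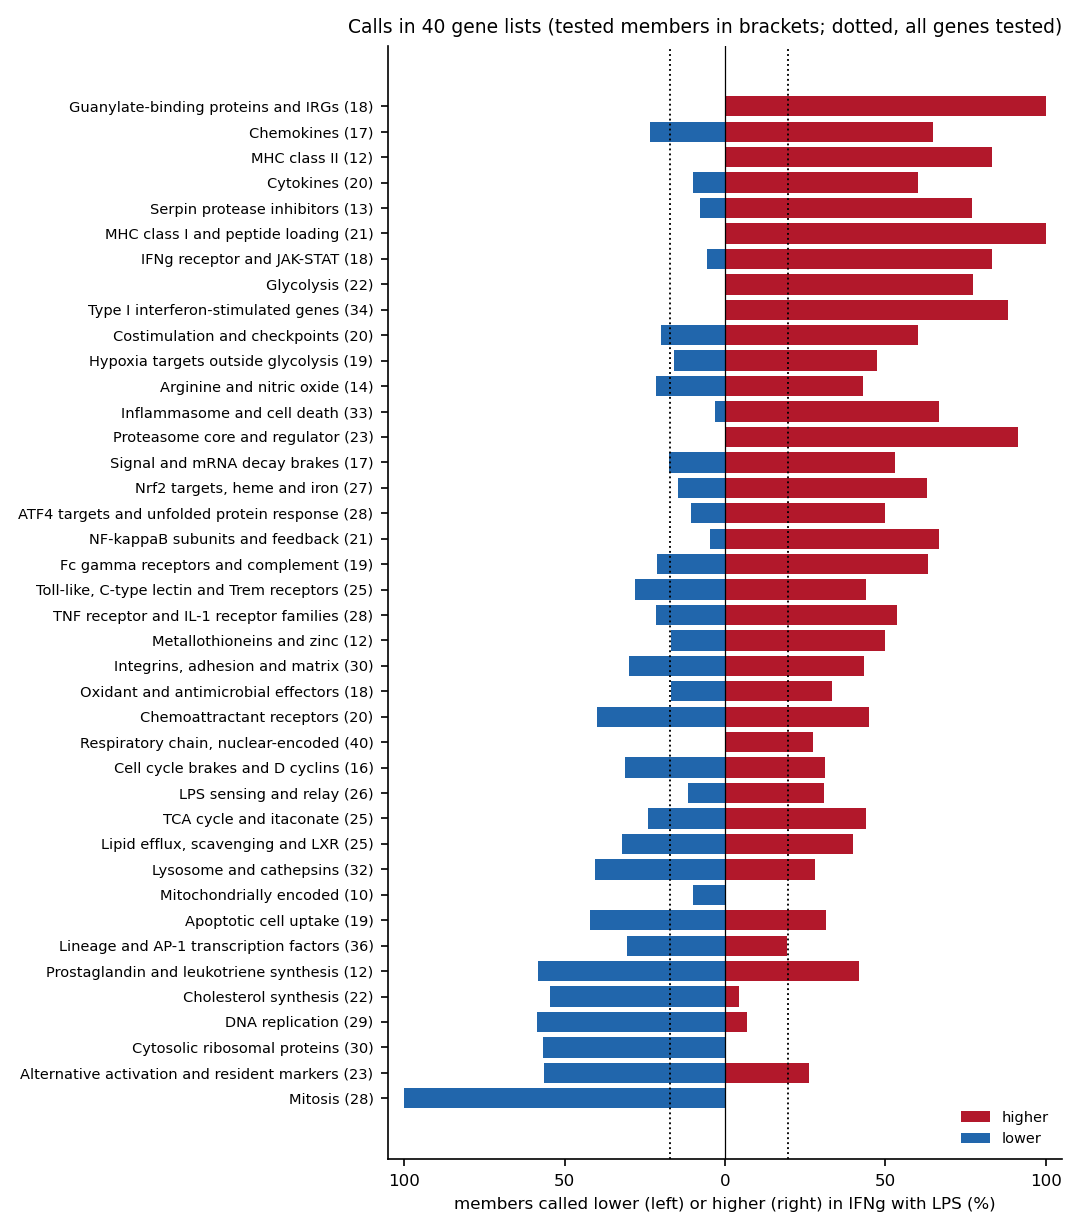
Share of the tested members of 40 gene lists called higher (red, right) or lower (blue, left) with IFNg and LPS than in control, in percent, ordered by the median log2 fold change, with the number tested in brackets and dotted lines at the 19.5% higher and 17.3% lower of all genes. Guanylate-binding proteins and MHC class I had every tested member higher and mitosis every member lower, while prostaglandin synthesis, apoptotic cell uptake and chemoattractant receptors held many members on both sides.

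Genes of the oxidant and iron response were mostly higher than with IFNg alone. Of 27, 17 were higher and 4 lower than in control, and 21 were higher and 1 lower than with IFNg alone. Hmox1, which degrades heme, had 2855, 2506 and 1657 CPM with IFNg and LPS, 164, 152 and 164 CPM with IFNg alone and 264, 253 and 280.4 CPM in control (log2FC 3.14 ± 0.15 over control, adjusted p = 1.62e-15). Prdx1, a peroxide scavenger, had 4276, 4219 and 3450.3 CPM with IFNg and LPS, 304, 251 and 327 CPM with IFNg alone and 443, 398 and 399 CPM in control (log2FC 3.27 ± 0.12 over control). In both genes the third library with IFNg and LPS was the lowest of its group and still above every library of the other groups. Slc7a11, the cystine importer that feeds glutathione synthesis, was at 31.3, 41.7 and 19.9 CPM with both agents, against 0.858, 0.489 and 0.121 CPM in control (log2FC 5.91 ± 0.37), and Sod2, the mitochondrial superoxide dismutase, at 339.9 CPM with IFNg and LPS against 35.7 in control (log2FC 3.25). Gclm, a subunit of the first enzyme of glutathione synthesis, was at 298 CPM with both agents against 46.1 in control (log2FC 2.69), while its partner Gclc was not called (log2FC 0.33).

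The ferritin heavy chain Fth1, the iron store, was at 12265 CPM with IFNg and LPS against 6193 in control (log2FC 0.99 ± 0.16) and at 2068 CPM with IFNg alone, and the iron exporter Slc40a1 at 94.6 CPM with both agents against 55.7 in control (log2FC 0.77), with 10.1 CPM under IFNg alone. Nqo1, a common readout of the factor Nrf2, was at 13.3 CPM with both agents against 13.7 in control and not called against control, but higher than with IFNg alone, where it was at 2.31 CPM, with a log2FC of 2.54 over it. The 4 lower members were Nfe2l2, which encodes Nrf2, at 403 CPM with both agents against 571 in control (log2FC -0.50), Blvra (log2FC -0.54), Sod1 (log2FC -1.20) and Gpx1, a glutathione peroxidase, at 517 CPM with both agents against 1258 in control (log2FC -1.28).

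Stress genes of the ATF4 program and of the endoplasmic reticulum were higher than in control in 14 of 28 cases and lower in 3. The transcription factor Atf4 was at 388 CPM with IFNg and LPS against 144 in control (log2FC 1.43), Trib3, which restrains it, at 17.5 CPM with both agents against 2.80 in control (log2FC 2.64), the asparagine synthetase Asns at 63.8 CPM with both agents against 11.4 in control (log2FC 2.48) and the one-carbon enzyme Mthfd2 at 117 CPM with both agents against 20.1 in control (log2FC 2.55), and these 4 were also higher than with IFNg alone. The chaperone Hspa5, or BiP, was at 1454 CPM with both agents against 781 in control (log2FC 0.90) but at 2076 CPM with IFNg alone, over which its log2FC was -0.51, and Pdia6, Pdia4, Manf and Hsp90b1 were called in the same directions. Herpud1, of endoplasmic reticulum degradation, was at 25.5 CPM with IFNg and LPS, 52.1 with IFNg alone and 60.6 in control (log2FC -1.25 over control).

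Cholesterol synthesis genes were lower than in control in 12 of 22 cases, with a median of -0.81. The sterol enzyme Cyp51 fell to 8.63 CPM with both agents, against 49.2 CPM in control (log2FC -2.51), and Sqle to 14.4 CPM with both agents, against 46.6 CPM in control (log2FC -1.69). Srebf2, the transcription factor of the pathway, was at 111 CPM with IFNg and LPS against 251 in control (log2FC -1.18).

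Among genes of lipid uptake, efflux and the nuclear receptor LXR, 10 of 25 tested members were higher and 8 lower, or 7 and 10 with scaling to total reads. The scavenger receptors Cd36, at 1782 CPM with IFNg and LPS against 272 in control (log2FC 2.71), and Msr1, at 457 CPM with both agents against 71.00 in control (log2FC 2.69), rose, as did Ch25h, which makes 25-hydroxycholesterol, at 105 CPM with both agents against 2.58 in control (log2FC 5.35). Apoe, the lipid carrier of macrophages, fell to 201, 153 and 228 CPM with both agents, against 1862, 949 and 1467 CPM in control (log2FC -2.88 ± 0.20, adjusted p = 1.08e-10). The lipid receptor Trem2 (189 CPM with both agents against 695 in control, log2FC -1.88), the HDL receptor Scarb1 (70.9 CPM with both agents against 268 in control, log2FC -1.92) and the cholesterol exporter Abca1 (236 CPM with both agents against 389 in control, log2FC -0.72) were lower, and the related exporter Abcg1 was higher (log2FC 0.48), a call lost with scaling to total reads (adjusted p = 0.100).

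Every one of 28 tested mitosis genes was lower with IFNg and LPS, with a median log2 fold change of -3.22, and 27 of them were also lower than with IFNg alone. Mki67, a marker of dividing cells, had 54.4, 73.5 and 58.7 CPM with IFNg and LPS, 338, 378 and 253 CPM with IFNg alone and 908, 1058 and 639.7 CPM in control (log2FC -3.80 ± 0.23 over control, adjusted p = 4.06e-11). Ccnb2, a cyclin of mitosis whose promoter is shown above, had 7.13, 7.14 and 5.78 CPM with IFNg and LPS, 71.9, 60.2 and 48.4 CPM with IFNg alone and 215, 173 and 176 CPM in control (log2FC -4.81 ± 0.37 over control). The 3 groups did not overlap in either gene. Plk1 (log2FC -4.21), Kif20a (log2FC -4.27) and Cdc20 (log2FC -4.01) fell likewise. In bulk libraries, fewer dividing cells and less RNA per cell cannot be told apart.

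Of 29 DNA replication genes, 17 were lower than in control and 2 higher, and 20 were lower than with IFNg alone. The helicase subunit Mcm5 had 33.4, 40.6 and 29.7 CPM with IFNg and LPS, 111, 105 and 107 CPM with IFNg alone and 92.2, 53.4 and 102 CPM in control (log2FC -1.25 ± 0.21 over control, adjusted p = 3.50e-05). Its IFNg with LPS libraries lay below all others, and those with IFNg alone lay above every control. Among the called members the nucleotide enzymes Tyms (log2FC -2.47), Tk1 (log2FC -2.21) and Rrm2 (log2FC -1.99) fell most. Ccne1, the cyclin of entry into replication, was higher instead, at 44.3 CPM with IFNg and LPS against 4.48 in control (log2FC 3.31 ± 0.28), as was Pcna, the sliding clamp (log2FC 0.81). D cyclins and cell cycle inhibitors changed both ways, 5 higher and 5 lower of 16: Ccnd2 was at 21.7 CPM with both agents against 1.32 in control (log2FC 4.05) and Ccnd1 at 89.6 CPM with both agents against 11.8 in control (log2FC 2.93), while the inhibitor Cdkn2c fell to 6.78 CPM with both agents, against 44.5 CPM in control (log2FC -2.71).

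Some markers of other marrow cells were lower too. Of 11 tested neutrophil and granulocyte precursor markers, 10 were lower, and their summed level was 31.7 to 44.4 CPM with IFNg and LPS and 112 to 170.0 CPM in control. That count was 6 when the 6 libraries were fitted alone. Elane, a protease of granule-forming precursors, had no count with IFNg and LPS, at least 58.9-fold lower than in control, and Mpo, myeloperoxidase, was at 0.246 CPM with IFNg and LPS against 15.9 in control (log2FC -6.07). Of 8 B cell markers 3 were tested and 2 lower, Ighm at 81.3 CPM with both agents against 639 in control (log2FC -2.98) and Cd79b at 1.73 CPM with both agents against 6.47 in control (log2FC -1.89), while Ms4a1 and Pax5 were too low to be tested, and the summed level of the list was 62.8 to 109.6 CPM with IFNg and LPS and 574 to 749.7 CPM in control. With IFNg alone the neutrophil and granulocyte precursor list summed to 111.0 to 132.9 CPM and the B cell list to 504.9 to 579.2 CPM. The part of these cells in the lower cell cycle genes was not tested.

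Of 7 tested dendritic cell markers, 4 were higher and 1, Siglech, was lower. Their summed level was 30.6 to 40.6 CPM with IFNg and LPS, against 5.27 to 5.35 CPM in control. The lower call of Siglech was lost whichever IFNg with LPS library was left out, at adjusted p-values of 0.0519, 0.114 and 0.0998. That of Zbtb46, higher, was lost whichever control library was left out, at 0.0788, 0.0742 and 0.0763. Clec9a was at 23.1 CPM with IFNg and LPS against 0.245 in control (log2FC 6.60) and at 83.9 CPM with IFNg alone, and Xcr1 had 2.26, 2.58 and 4.32 CPM with both agents, against no count in control, at least 52.2-fold higher. The NK cell list rested on Klrk1, at 32.2 CPM with both agents against 0.625 in control (log2FC 5.73), and the mast cell list on the histamine-making Hdc, at 6.43 CPM with both agents against 2.14 in control (log2FC 1.58). Of 4 endothelial markers 2 were higher and 1 lower, of 6 fibroblast markers 1 was higher at under 1 CPM, and the endothelial list summed to 104 to 126 CPM with IFNg and LPS and 182 to 255 CPM in control. The T cell list, with 3 members tested, summed to 120.1 to 210.0 CPM with both agents and 119.7 to 136 CPM in control, and the megakaryocyte list, with 2 tested, to 21.1 to 24.4 CPM with both agents and 20.6 to 27.1 CPM in control. Among macrophage markers 3 were higher and 5 lower, or 3 and 8 with scaling to total reads, led by Aif1 at 335 CPM with both agents against 37.03 in control (log2FC 3.18) and by the fall of Lyz2.

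**Figure D4:**
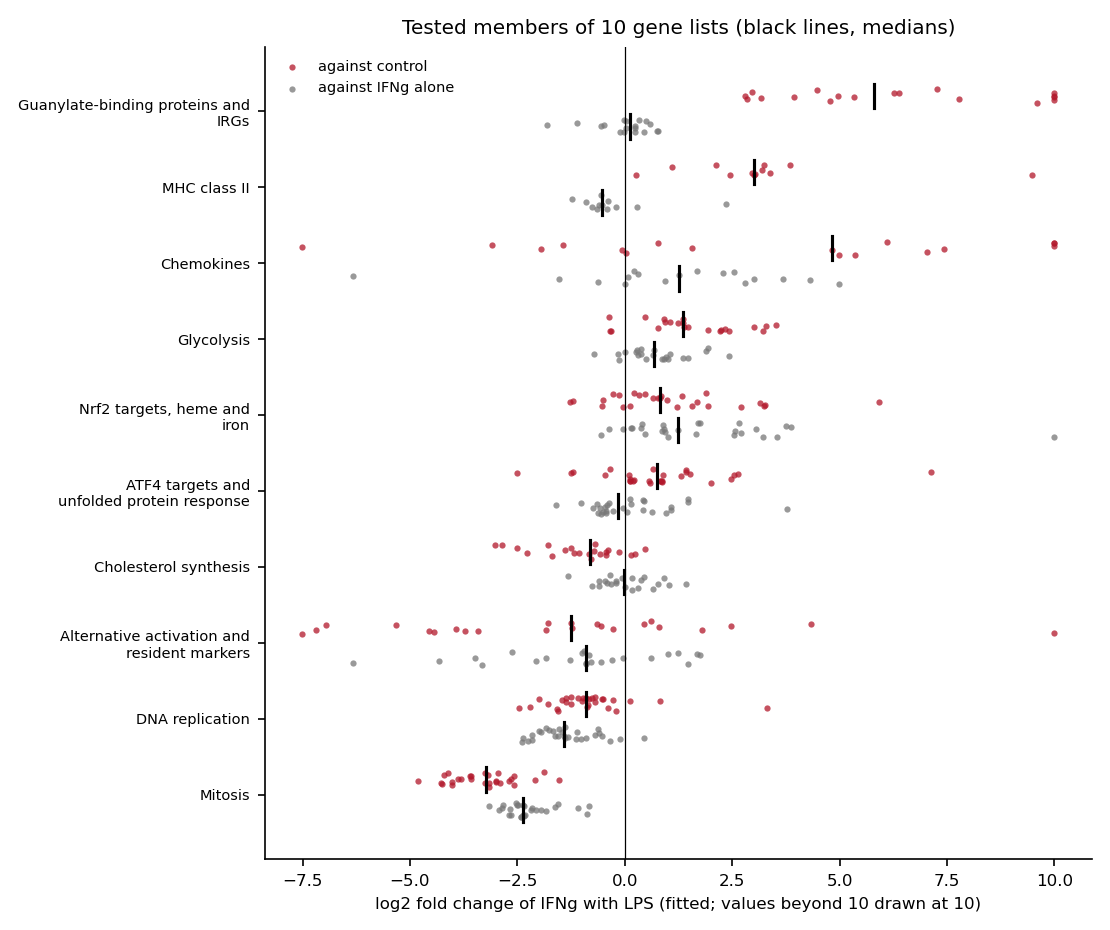
Fitted log2 fold change of every tested member of 10 gene lists with IFNg and LPS, against control (red) and against IFNg alone (grey), with black lines at the medians and values beyond 10 drawn at 10. Both comparisons use the same IFNg with LPS libraries. MHC class II lay right of 0 against control and mostly left of 0 against IFNg alone, Nrf2 targets lay mostly right of 0 in both, and mitosis genes lay left of 0 in both.

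Markers of alternative activation and of resident macrophages were lower in 13 of 23 cases and higher in 6, with a median of -1.24. Mrc1, the mannose receptor, had 7.94, 11.6 and 14.98 CPM with IFNg and LPS, 74.9, 52.4 and 85.6 CPM with IFNg alone and 492, 432 and 463 CPM in control (log2FC -5.33 ± 0.34 over control, adjusted p = 6.25e-10), with no overlap among the groups. The selenium carrier Selenop fell to 294 CPM with both agents, against 3106 CPM in control (log2FC -3.40), and Gas6, a bridge to apoptotic cells, to 36.1 CPM with both agents, against 474 CPM in control (log2FC -3.71). The coagulation factor F13a1 (log2FC -4.43), Fcrls (log2FC -4.56) and the lectin Clec10a (log2FC -3.94) fell as well. Among the higher members were Arg1, given above, the transglutaminase Tgm2, at 1249 CPM with IFNg and LPS against 62.1 in control (log2FC 4.33), and Il4ra, the IL-4 receptor, at 589.6 CPM with both agents against 170.1 in control (log2FC 1.79). The complement genes C1qa, C1qb and C1qc were higher than in control and lower than with IFNg alone, C1qb for example at 2578 CPM with IFNg and LPS, against 4605 with IFNg alone and 1676 in control.

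For the uptake of apoptotic cells, 6 of 19 tested members were higher and 8 lower. The receptor Mertk was at 227 CPM with IFNg and LPS against 53.8 in control (log2FC 2.08) and the bridging matrix protein Thbs1 at 713 CPM with both agents against 88.4 in control (log2FC 3.01), while the ligands of Mertk, Gas6 and Pros1 (28.2 CPM with both agents against 102 in control, log2FC -1.85), fell. The scavenger receptor Stab1 (log2FC -2.10), the integrin subunit Itgb5 (log2FC -2.21) and the bridging protein Mfge8 (log2FC -1.40) were lower. Among Fc gamma receptors and complement, 12 of 19 tested members were higher and 4 lower. C3, the central complement protein, had 7993, 8980.3 and 9002 CPM in the IFNg with LPS libraries, against 154, 137 and 201 CPM in control (log2FC 5.72 ± 0.20, adjusted p = 2.64e-17). Fcgr4 (975 CPM with both agents against 83.4 in control, log2FC 3.55) and Fcgr1 (1295 CPM with both agents against 378 in control, log2FC 1.78), which activate on antibody, rose, and the inhibitory Fcgr2b fell to 25.1 CPM with both agents, against 78.3 CPM in control (log2FC -1.64). Cfb, of the alternative pathway, had 13.96, 16.9 and 1.25 CPM with both agents, against no count in control, and the third IFNg with LPS library was far below the other two.

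Pattern receptors, Tlr4 included, changed both ways: 11 of 25 tested members were higher and 7 lower. The lectin Clec4e, or Mincle, had 357, 367 and 272 CPM with both agents, against 23.96, 25.2 and 16.9 CPM in control (log2FC 3.91 ± 0.20), and its neighbour Clec4n was at 147 CPM with IFNg and LPS against 4.75 in control (log2FC 4.95), though neighbouring lectin genes could share reads. Tlr9 (721 CPM with both agents against 263 in control, log2FC 1.46) and Tlr3 (95.6 CPM with both agents against 37.2 in control, log2FC 1.36), sensors of DNA and of double-stranded RNA, were higher. Tlr7 (254 CPM with both agents against 834 in control, log2FC -1.72), Tlr8 (342 CPM with both agents against 616 in control, log2FC -0.85) and Tlr2 (105 CPM with both agents against 279 in control, log2FC -1.41) were lower. Of 33 inflammasome and cell death genes, 22 were higher and 1 was lower. The caspases Casp1 (525 CPM with both agents against 146 in control, log2FC 1.85) and Casp4 (161 CPM with both agents against 40.1 in control), which cleave the pore protein Gsdmd (log2FC 0.96), rose. Higher as well were Nlrp3 (log2FC 0.81), the necroptosis effector Mlkl (245 CPM with both agents against 48.4 in control, log2FC 2.34) and Zbp1 (log2FC 2.46), which acts upstream of Mlkl. Survival genes rose too, Cflar (log2FC 1.61) and Bcl2l1 (log2FC 1.60), and the death inducer Bcl2l11 was the lower one (log2FC -1.18).

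The lysosome list was near balance, with 9 higher and 13 lower of 32, or 7 and 17 with scaling to total reads, but 2 cathepsins stood apart. Ctsc, which activates granule proteases, had 5415, 6068 and 6498 CPM with both agents, against 415, 351 and 399.5 CPM in control (log2FC 3.95 ± 0.12, adjusted p = 4.06e-20), and Ctsh was at 1216 CPM with IFNg and LPS against 250.2 in control (log2FC 2.28). Legumain, Lgmn (1073 CPM with both agents against 2403 in control, log2FC -1.16), and the hexosaminidase Hexa (791 CPM with both agents against 1831 in control, log2FC -1.21) were lower. Among lineage and AP-1 transcription factors, 7 of 36 tested members were higher and 11 lower, or 6 and 15 with scaling to total reads. The higher share, 19.4%, was that of all tested genes (19.5%), while 30.6% were lower against 17.3% of all. Batf2, induced by interferons, was at 347 CPM with both agents against 8.27 in control (log2FC 5.38), and Klf6 at 538 CPM with both agents against 175 in control (log2FC 1.62), while Runx1 (18.2 CPM with both agents against 50.5 in control, log2FC -1.47), Maf (27.5 CPM with both agents against 65.2 in control, log2FC -1.24) and Egr2 (1.70 CPM with both agents against 11.6 in control, log2FC -2.75) were lower. Of 30 ribosomal protein genes with enough counts, out of 53 listed, 17 were lower. Rpl8, for instance, was at 420.0 CPM with both agents against 862 in control (log2FC -1.04), and copies of these genes elsewhere in the genome make their counts uncertain.

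Some genes differed from IFNg alone in the direction opposite to their difference from control. Of the 2256 genes higher than in control, 100 were lower than with IFNg alone. Of the 2005 lower than in control, 51 were higher than with IFNg alone. Over all 11563 tested genes, 1164 (10.1%) were lower and 1184 (10.2%) higher than with IFNg alone, so both patterns were rarer in these sets than over all genes. The 2 comparisons share the IFNg with LPS libraries, so these counts are given without a test. Gbp2b, described above, had 1963, 1898 and 1963 CPM with IFNg alone, over which its log2FC with IFNg and LPS was -1.80 ± 0.15 (adjusted p = 5.96e-09). The other 4 of the first 5 of these by fitted log2FC over control were Serpina3f, Gbp11, Sectm1a, an interferon-induced surface ligand, and the muscarinic receptor Chrm3, whose log2FCs over IFNg alone were -0.39, -1.10, -0.71 and -1.08. Each of the 5 had no count in control. In the other direction, Mmp12, the macrophage elastase, had 50.8, 27.8 and 43.9 CPM with IFNg and LPS, 5.94, 6.65 and 6.43 CPM with IFNg alone and 184, 214 and 203 CPM in control. S1pr1, a receptor for exit from tissues, was at 10.4 CPM with IFNg and LPS, 2.33 with IFNg alone and 89.3 in control. Stab1 was at 309 CPM with IFNg and LPS, 227 with IFNg alone and 1326 in control, and the transporter Slc6a12 and Ms4a4a had the same pattern.

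**Figure D5:**
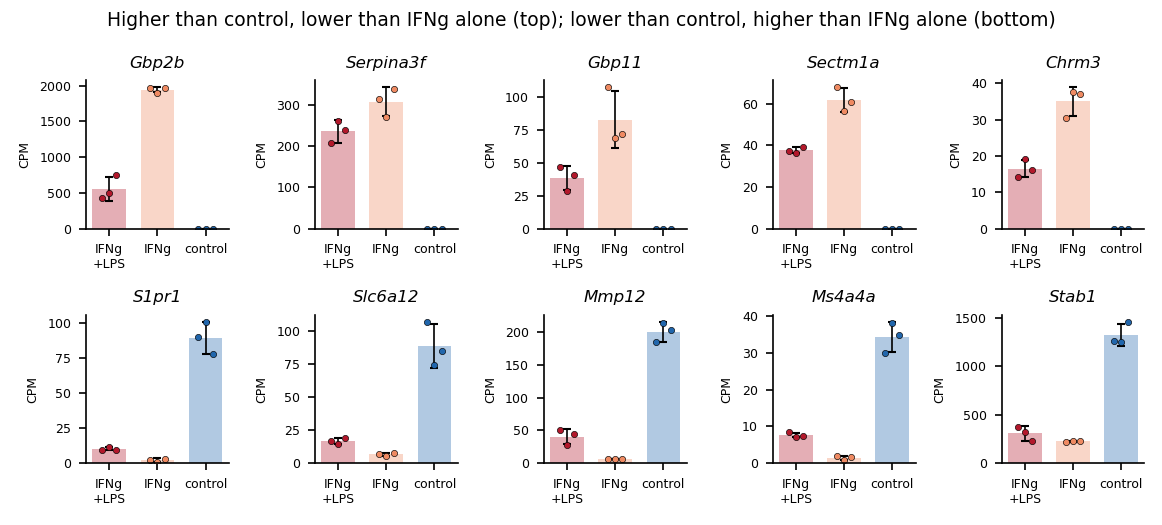
CPM per library with IFNg and LPS, with IFNg alone and in control (points; bars, mean; error bars, SD of 3 libraries) of the 5 genes with the largest fitted log2FC over control that were lower than with IFNg alone, and of the 5 with the lowest that were higher than with IFNg alone. In the upper row control was at 0 and IFNg alone was highest, and in the lower row control was highest and IFNg alone lowest.

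Levels of different genes were set side by side per kilobase of coding length. With IFNg and LPS the highest were B2m, at 23524 CPM per kilobase, against 9414 in control, Fth1, at 22339.9 against 11280.0 in control, and the lysosomal Psap, at 10456 against 6906 in control. The cathepsins Ctsb and Ctss, Cd74, Lyz2, Gbp2, Prdx1 and Ly6a, a surface protein of the Ly6 family, completed the first 10. Of these, Cd74, Gbp2, Prdx1 and Ly6a were not among the first 10 in control. Ly6a was at 6311 CPM per kilobase, against 209 in control. In control the highest was Lyz2, at 6843 CPM per kilobase with IFNg and LPS and 22683 in control. Lgals3, S100a4, Gpnmb and Tmsb4x were among the first 10 of control alone, S100a4 for example at 1849 with IFNg and LPS and 6191 in control. Nos2 stood at 899.9 CPM per kilobase with IFNg and LPS.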

How the data were processed

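Stranded mRNA libraries from 100 ng RNA were read as single ends of 50 bases, per the labels' protocols. Reads were aligned with GSNAP to mm10, per the submitters' processing notes, while the counting tool, with its annotation and strand setting, is not given in the sources used here. The authors deposited, per the file headers, a raw count, a gene width and an RPKM value for each of 22598 genes. Widths are multiples of 3 in 86.7% of genes, so lengths are coding lengths. RPKM values served only to infer total reads, of which 51.9% to 54.89% were counted.

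Counts of genes passing edgeR's default filter were scaled by TMM and tested with edgeR 4.0.16 (robust quasi-likelihood test, a mean for each of 6 groups over 18 libraries), with Benjamini-Hochberg adjustment and a two-sided threshold of 0.05, after a check on simulated data. CPM are counts over the tested-gene total times the TMM factor. Where a group had no count, a fold is a bound against 3 counts over that group, and where it had 1 to 3 counts a pooled ratio with its 95% interval is given. Intervals and floors cover counting error only. Alternatives used R 4.3.3, DESeq2 1.42.0, other scalings and filters, the compared libraries alone, the replicate number as a block and each library left out.

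The text names the 10 called genes of largest fitted rise and fall with at least 10 CPM and no overlap, members of 40 pathway and 11 marker lists, a short list of classical activation genes such as Nos2, the 10 highest levels per kilobase in each group, and the 5 and 5 largest that were opposite against IFNg alone. Members and lists were chosen with earlier results of these data known. Promoters came from RefSeq, and 22457 of the 22598 Ensembl gene IDs were matched to a symbol. Copies of ribosomal, Fth1, Gapdh, Pgk1, Gbp, Tgtp, H2-Q, Serpina3, Clec4 and Ly6 genes make their single values uncertain, and mitochondrial genes overlap.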

Additional observations from a re-analysis of the deposited data

How the results depend on the processing

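Leaving out 1 library at a time gave 3660 to 4036 calls against control, 2080 to 2245 of them at least 2-fold, and 1860 to 2198 calls against IFNg alone. Other scalings, filters and tests gave 3583 calls with the 6 libraries alone to 4613 with RPKM-based totals, and 4446 with DESeq2. No call against control that these fits shared with the reported one changed direction. Of 249 genes picked by rank, by level or as classical activation genes, 31 lost or gained a call in at least 1 of 14 alternatives. Other list members named above, such as Ifngr2, Ptges2, Abcg1, Nfkb1 and Rel, were outside these 249. The split was 1610 higher and 3001 lower with count totals and no TMM factors. For the replicate numbers, the deviations of same-numbered IFNg with LPS and control libraries correlated at -0.04, 0.046 and -0.178, so the numbers did not pair them. Same-numbered libraries with both agents and with IFNg alone correlated at 0.183, 0.058 and 0.048. Those with IFNg alone and control correlated at 0.159, 0.148 and 0.095, so some pairing by number is possible there. A replicate block gave 4418 calls against control and 2515 against IFNg alone. In simulated data for this comparison, over 10999 genes, 16.4% of 1.5-fold, 62.7% of 2-fold and 90.9% of 4-fold changes were recovered, with 3 false calls. Only 67, 67 and 66 genes were changed there by these folds, in both directions, while 36.9% of tested genes were called here. These rates therefore need not hold for the real comparison, and an uncalled gene is not shown to be equal.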

Other observations

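Protease inhibitors and adhesion genes also differed. Of 13 tested serpins and related inhibitors, 10 were higher with IFNg and LPS than in control and 1 lower. Serpinb9, which protects cells from granzyme B, was at 285 CPM with IFNg and LPS against 6.67 in control (log2FC 5.41), Serpina3g at 958 CPM with both agents against 1.03 in control (log2FC 9.86) and Slpi, an inhibitor of neutrophil elastase, at 7.75 CPM with both agents against 0.881 in control (log2FC 3.17). Serpinb6a was the lower one, at 407 CPM with both agents against 1102 in control (log2FC -1.44). Among integrins, adhesion and matrix genes, 13 of 30 tested members were higher and 9 lower. The membrane protease Mmp14 was at 92.2, 82.9 and 49.8 CPM with both agents, against 0.706, 0.489 and 2.12 CPM in control (log2FC 6.10 ± 0.39), the urokinase Plau at 123 CPM with both agents against 11.7 in control (log2FC 3.40), and Icam1, a ligand of leukocyte integrins, at 619 CPM with both agents against 101 in control (log2FC 2.61). Itgal, a chain of the integrin LFA-1, was at 499.7 CPM with both agents against 64.5 in control (log2FC 2.95). Spp1, or osteopontin, fell to 415 CPM with both agents, against 3118 CPM in control (log2FC -2.91), and the laminin receptor chain Itga6 to 25.8 CPM with both agents, against 313 CPM in control (log2FC -3.60).

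Of 28 cytokine receptors of the TNF, IL-1 and related families, 15 were higher and 6 lower. Il15ra, which presents IL-15 to other cells, was at 38.4 CPM with IFNg and LPS against 2.35 in control (log2FC 4.03), the shared chain Il2rg at 362 CPM with both agents against 46.7 in control (log2FC 2.95) and the TNF receptor Tnfrsf1a at 595 CPM with both agents against 186 in control (log2FC 1.68). The chains of the IL-6 receptor, Il6ra (63.1 CPM with both agents against 135 in control, log2FC -1.10) and Il6st (125 CPM with both agents against 293 in control, log2FC -1.23), and the M-CSF receptor Csf1r (4967 CPM with both agents against 7350.3 in control, log2FC -0.57) were lower. Il1rl1, the IL-33 receptor, had no count with IFNg and LPS, at least 30.9-fold lower than in control. Of 12 metallothioneins and zinc transporters, 6 were higher and 2 lower, or 4 and 3 with scaling to total reads. The 2 lower, 16.7%, were near the 17.3% of all tested genes. The zinc exporter Slc30a1 was at 61.97 CPM with both agents against 15.6 in control (log2FC 1.98), Mt2 at 24.2 CPM with both agents against 8.96 in control (log2FC 1.43) and the importer Slc39a14 at 21.4 CPM with both agents against 9.38 in control (log2FC 1.19).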
